A study of Homo sapiens and Mus musculus with 213 samples.

Results

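The genes described here encode the partners and relatives of the transcription factor MYC: the paralogs MYCN and MYCL, the common partner MAX, the MAX-binding repressors MXD1, MXI1, MXD3, MXD4 and MNT, the MAX-like protein MLX and the MAX-binding protein MGA. They were chosen by name, as the rows whose Ensembl identifier carries one of these symbols in GENCODE, and all 10 were found among the 58336 genes listed. RNA-seq was done on 3 lines of HEK293T, an immortalized line from human embryonic kidney, with 3 libraries per line. MYC WT is the unedited HEK293T line, with the natural G-quadruplex (G4) motif in the promoter of MYC. MYC MUT (HEK293T_MutMYCG4) was made by CRISPR and carries base changes in the G-runs of that motif, designed so that it cannot fold. In the remaining line, SWP, the MYC motif was replaced by a G4 motif taken from another gene. The edited lines are single-cell clones homozygous for their edits, grown in the same medium as MYC WT, and the sources used here do not say whether the 3 libraries of an edited line came from more than 1 clone. The p-values below therefore measure the spread between these libraries only.

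MYC proteins bind DNA only when paired with MAX through a helix-loop-helix and leucine zipper domain, and the pairs recognize the E-box, a short DNA element found at many genes of growth and biosynthesis. MXD proteins and MNT compete for MAX and the same element, and recruit SIN3 corepressors with histone deacetylases, so that the supply of MAX and of its partners sets the balance between activation and repression. MLX heterodimerizes with the glucose-responsive Mondo proteins and with some MXD proteins, and MGA belongs to a Polycomb-type repressor complex.

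Each library had 65024354 to 98497026 reads assigned to genes. The targeted gene went the way of the labels: MYC had 20020, 28396 and 21580 normalized counts (read counts divided by 1 size factor per library) in MYC WT, 10693, 11176 and 12400 in MYC MUT and 14480, 24743 and 25245 in SWP. MYC fell by 1.02 ± 0.19 (SE) on the log2 scale in MYC MUT (limma adjusted p = 0.00182), and SWP held 92.1% of the MYC WT mean. Library 1 of MYC WT and library 1 of SWP stood apart from the other libraries of their lines, with a chi-square per degree of freedom of 38.4 to 55.6 against the others of the line, compared with 12.1 and 24.5 between the remaining pairs of those lines and 8.32 to 14.0 within MYC MUT. The column headers of MYC WT end in a suffix that those of the edited lines lack, and the files do not say what it stands for. Whatever it marks and the edits cannot be told apart in any comparison with MYC WT. All 8 HEK293T markers (KRT8, KRT18, VIM, NEFL, NEFM, PAX2, LHX1 and GATA3) were detected in every library, while PTPRC and PECAM1, which define blood and endothelial cells, had at most 1.95 normalized counts in any library. By the call rule given below, 4 of these 8 rose and 2 fell in MYC MUT against MYC WT, 0 rose and 2 fell in SWP against MYC WT, and 0 rose and 5 fell in SWP against MYC MUT. KRT8, a keratin gene, had 400 to 504 normalized counts in MYC WT, 755 to 804 in MYC MUT and 172 to 206 in SWP. Of the 8 markers of other cell types, 4 had enough reads to be tested, and CD14 (8.98 to 14.4 in MYC WT, 22.4 to 32.1 in MYC MUT) and COL1A1 (1034 to 1213 and 1843 to 1951) rose and COL3A1 (78.0 to 130 and 47.7 to 70.0) fell in MYC MUT, while PTPRC, PECAM1, DCN and ALB had at most 8.07 anywhere. Their part in the results below was not tested.

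Levels of different genes were compared as normalized counts per kilobase of annotated exon. In MYC WT, MLX was the most abundant of the 10 at 1545 ± 92.9 (SD, n = 3), followed by MXD4 at 1297 ± 24.6. MAX at 908 ± 126 and MXI1 at 907 ± 75.8 came next, and their libraries overlapped. MNT at 304 ± 16.8, MGA at 275 ± 34.1 and MXD3 at 271 ± 44.8 formed a middle tier in which neighbours in the order overlapped as well. MYCL reached 208 ± 42.3, MXD1 99.8 ± 4.93 and MYCN only 6.39 ± 3.31. For scale, MYC stood at 3819 ± 729 in MYC WT, 1870 ± 144 in MYC MUT and 3518 ± 994 in SWP. In both edited lines MXD4 and MLX changed places, at 1418 ± 97.1 and 1240 ± 56.6 in MYC MUT and at 1377 ± 78.7 and 1160 ± 52.6 in SWP, with no overlap between the libraries of the 2 genes in any line. MAX, MXI1 and MNT kept ranks 3 to 5, MYCL, MXD1 and MYCN ranks 8 to 10, and MGA and MXD3 exchanged places in the edited lines. MYCL and MXD1 did not overlap in MYC WT but did in MYC MUT, where MYCL was at 129 ± 18.1 and MXD1 at 117 ± 3.48, and in SWP, at 194 ± 57.1 and 142 ± 16.3. With the longest annotated transcript as the length, MXD3 came before MNT and MGA in MYC WT and before MNT in SWP, and the order in MYC MUT stayed as it was.

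**Figure D1:**
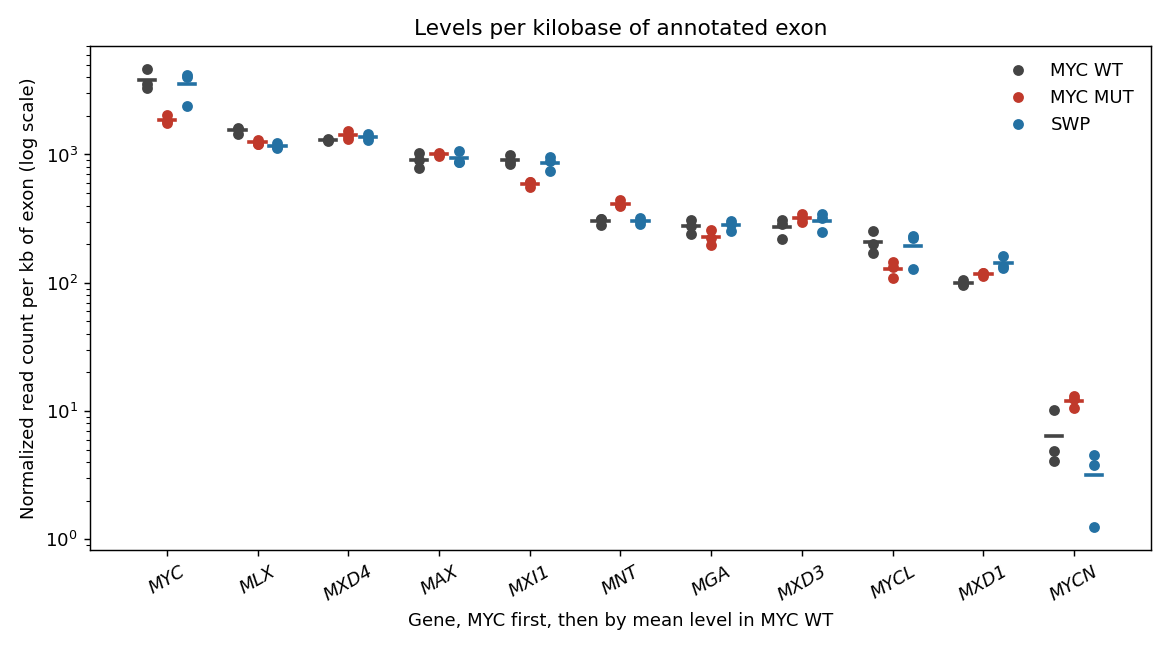
Normalized read count per kilobase of exon (log axis) of MYC and the 10 network genes, with 1 point per library and a bar at the mean of each line. MLX and MXD4 lie highest of the 10 and MYCN lies lowest, at a mean of 6.39 in MYC WT.

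The promoters of the members were read from RefSeq windows on GRCh38.p14 that run from 250 bases before to 50 bases after an annotated start, of which 15 windows matched the 10 members. The E-box, CACGTG (the same on both strands), lay in 3 of the 15 member windows (1 each of MNT, MXD4 and MLX) and in 7.26% of all 35116 windows. A G4 motif on either strand (4 or more runs of at least 3 G, 1 to 7 bases apart) lay in 6 of the 15 (of MYCL, MAX, MXD4 and MXI1) and in 25.0% of all windows. With the variants CACGCG and CATGTG counted too, on both strands, 7 of the 15 held an E-box, against 27.2% of all windows. These counts are a description of few windows, several of which belong to 1 gene. Given below are windows of 4 members picked for holding a motif and having an adjusted p under 0.05 in some comparison. MNT and MLX among them were not called by the rule below. The windows of MYCN and MXD1, which were called in a comparison, held neither motif, nor did the MXI1 window at chr10:110207355-110207654. Letters are in lower case and 5′ to 3′ on the strand of the gene. Capitals mark the G4 motif in MYCL and MXI1 and the E-box in MNT and MLX. Runs of C in capitals are G-runs of the opposite strand. A match is a description of the letters and not of a factor or a folded structure at that place.
MYCL (chr1:39901868-39902167, minus strand, motif 165 bases before the start): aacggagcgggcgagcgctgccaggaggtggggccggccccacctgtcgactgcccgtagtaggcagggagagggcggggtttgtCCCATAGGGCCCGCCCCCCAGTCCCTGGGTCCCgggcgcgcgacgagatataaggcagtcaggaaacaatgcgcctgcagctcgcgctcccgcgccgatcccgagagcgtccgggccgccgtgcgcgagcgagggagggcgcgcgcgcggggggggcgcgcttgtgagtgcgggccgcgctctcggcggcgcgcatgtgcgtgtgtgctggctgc
MXI1 (chr10:110225746-110226045, plus strand, motif 63 bases before the start of one of its 3 windows): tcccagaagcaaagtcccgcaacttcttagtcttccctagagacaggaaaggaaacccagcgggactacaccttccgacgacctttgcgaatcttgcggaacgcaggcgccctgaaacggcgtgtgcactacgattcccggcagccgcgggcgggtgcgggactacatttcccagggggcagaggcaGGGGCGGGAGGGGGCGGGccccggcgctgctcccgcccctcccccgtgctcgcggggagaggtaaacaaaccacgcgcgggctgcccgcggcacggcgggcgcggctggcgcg
MNT (chr17:2401011-2401310, minus strand, E-box 193 bases before the start): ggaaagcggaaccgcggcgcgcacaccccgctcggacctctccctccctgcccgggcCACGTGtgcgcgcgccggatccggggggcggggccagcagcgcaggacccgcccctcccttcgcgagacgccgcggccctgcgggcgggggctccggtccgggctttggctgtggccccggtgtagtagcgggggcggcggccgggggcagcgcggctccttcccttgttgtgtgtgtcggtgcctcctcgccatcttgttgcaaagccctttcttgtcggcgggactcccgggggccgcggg
MLX (chr17:42566850-42567149, plus strand, E-box 50 bases before the start): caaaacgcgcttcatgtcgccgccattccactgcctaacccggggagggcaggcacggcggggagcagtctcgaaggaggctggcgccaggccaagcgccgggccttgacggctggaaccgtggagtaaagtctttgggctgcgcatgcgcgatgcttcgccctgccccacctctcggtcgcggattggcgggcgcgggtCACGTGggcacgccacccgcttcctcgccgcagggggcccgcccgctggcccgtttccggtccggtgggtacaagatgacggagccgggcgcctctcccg

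The first comparison asked how the network stood in cells whose MYC motif was edited against folding, as MYC MUT against MYC WT. MYCL and MXI1 were lower in MYC MUT, to 62.0% and 65.0% of their MYC WT means, and no member was called higher. MNT was higher and MLX lower by less than the fold threshold, and MAX, the partner of all MYC proteins, did not pass the test. A gene was called when limma on log2(normalized count + 1) gave a Benjamini-Hochberg adjusted p under 0.05, over the 20884 genes with a mean of at least 10, and a log2 fold change beyond 0.5. By that rule 2 of 10 members were called lower, where 10.1% of all genes were, and 0 of 10 were called higher, where 11.3% were. edgeR and DESeq2 on the read counts also gave 2 lower and 0 higher. With the adjusted p alone 4 of 10 members passed (MYCL, MNT, MXI1 and MLX), as did 8021 of the 20884 genes. At an unadjusted p under 0.05 in limma 3 were higher (MYCN, MNT and MXD1) and 4 lower (MYCL, MXI1, MLX and MGA). The share of all genes at that unadjusted p was not counted, so such counts, here and below, have no background. The 3 libraries of MYC MUT and of MYC WT did not overlap for 7 of 10 members, and for 52.3% of all genes. The median log2 fold change was 0.14 over the members and -0.0034 over all genes tested. In these bulk libraries a change in the mix of cell states and a change in RNA per cell cannot be told apart.

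The other comparisons set the line with the exchanged motif against MYC WT and against MYC MUT, and share those libraries with the first. Against MYC WT, MXD1 was called higher in SWP (1 of 10 members, with 2.15% of all genes called higher) and 0 of 10 were called lower (2.98% of all genes), as with edgeR and DESeq2, while 2 were lower at an unadjusted p under 0.05 in limma. In that comparison MXD1 and MLX alone of the 10 had an adjusted p under 0.05, as did 2083 of the 20884 genes. They alone also had libraries that did not overlap, as did 24.6% of all genes. The median was 0.02 over the members and -0.06 over all genes. Against MYC MUT, MXI1 was called higher in SWP (8.31% of all genes) and MYCN lower (12.3% of all genes), and edgeR and DESeq2 called MYCL higher as well. There MYCN, MNT, MXD1 and MXI1 had an adjusted p under 0.05, as did 7944 of the 20884 genes. The same members had no overlap, as did 52.3% of all genes. The median was -0.06 over the members and -0.04 over all genes. Left out together, library 1 of MYC WT and library 1 of SWP ended the call of MXD1 and added a call of MYCL in SWP against MYC MUT, so that the counts became 2, 0 and 3 in the order given here. This check was chosen after the data were seen.

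**Figure D2:**
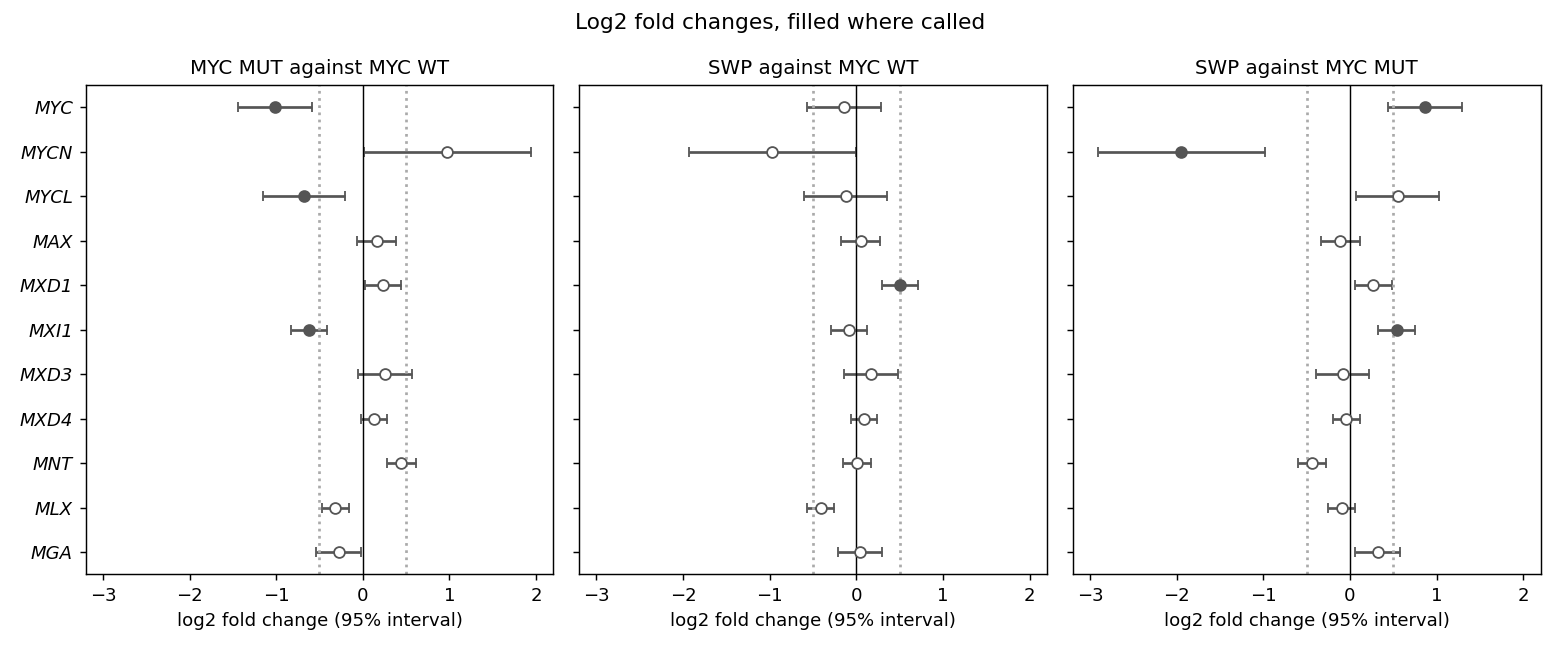
Log2 fold change with its 95% confidence interval from limma for MYC and the 10 members in the 3 comparisons, filled where called, with dotted lines at 0.5 and -0.5. MXI1 lies at -0.62 in MYC MUT against MYC WT, and at 0.54 in SWP against MYC MUT, while MYCN has the widest intervals.

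MYCN encodes N-MYC, which drives growth in the embryonic nervous system and is amplified in neuroblastoma. It lies at chr2:15940550-15947007 (hg38, plus strand). It was barely expressed, with 11, 25 and 14 reads in the MYC WT libraries, 37, 37 and 30 in MYC MUT and 3, 17 and 9 in SWP. As normalized counts these were 11.3, 28.1 and 13.5 in MYC WT, 34.2, 36.0 and 29.2 in MYC MUT and 3.44, 12.6 and 10.4 in SWP. Every MYC MUT library lay above every other library, by a narrow margin over MYC WT library 2, whereas MYC WT and SWP overlapped. The difference between the edited lines passed the test, with a log2 fold change of -1.95 ± 0.44 (SE) in SWP against MYC MUT and an adjusted p of 0.00486 by limma. The difference of 0.98 ± 0.44 between MYC MUT and MYC WT did not pass (limma adjusted p = 0.101, 95% confidence interval 0.01 to 1.94), nor did that of -0.97 ± 0.44 between SWP and MYC WT (limma adjusted p = 0.206). The first of these was called in 5 of 20 alternatives: with a pseudocount of 10 (limma adjusted p = 0.0486), only the 2 groups (0.0367), the replicate block (0.0325), without MYC WT library 2 (0.0406, log2 fold change 1.35) and without SWP library 1 (0.0275). The second dropped to -0.47 without SWP library 1, to -0.59 without MYC WT library 2 and to -0.54 with a pseudocount of 10, and was not called in any alternative. The difference between the edited lines was called in all 20, at -1.23 with a pseudocount of 10 and between -1.45 and -2.26 with 1 library left out.

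MYCL encodes L-MYC, first found amplified in small cell lung cancer and a weaker transforming factor than MYC. It spans chr1:39895428-39902256 on the minus strand. Its normalized counts were 841, 1257 and 999 in MYC WT, 543, 658 and 720 in MYC MUT and 639, 1102 and 1154 in SWP. All MYC MUT libraries were below all MYC WT libraries, and library 1 of SWP lay among those of MYC MUT while its other 2 libraries lay among those of MYC WT. MYCL fell by 0.68 ± 0.22 (log2) in MYC MUT (limma adjusted p = 0.0293). That call was lost with equal totals (limma adjusted p = 0.0547), without the eBayes trend (0.0646), without MYC WT library 2 (limma adjusted p = 0.112) or 3 (0.0718) and without MYC MUT library 1 (0.11) or 2 (0.0634). SWP differed from MYC WT by -0.13 (95% confidence interval -0.60 to 0.35). SWP against MYC MUT gave 0.55 ± 0.22 with an adjusted p of 0.0661 by limma, which became 0.0019 with the replicate number as a block and 7.2e-05 without library 1 of MYC WT and of SWP. Of the 153 tested genes within 5 Mb of MYCL, 38 were called lower and 4 higher in MYC MUT against MYC WT, with a median of -0.34, and their median in SWP against MYC MUT was 0.29.

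MAX, at chr14:65006174-65102695 on the minus strand, encodes the obligate partner of MYC, MXD, MNT and MGA proteins. Its normalized counts were 6480, 4911 and 5645 in MYC WT, 6344, 6136 and 6435 in MYC MUT and 6627, 5473 and 5489 in SWP. The lines overlapped throughout, and within MYC WT and SWP the highest MAX value was that of library 1. MAX was at 111% of MYC WT in MYC MUT (log2 fold change 0.16, 95% confidence interval -0.07 to 0.39) and at 103% in SWP (0.05, -0.18 to 0.28), and no comparison passed the test. Without library 1 of MYC WT and of SWP the first value became 0.26 with a limma adjusted p of 0.0077, still short of the fold threshold. FNTB, which runs on the opposite strand and shares 822 exon bases with MAX, had mean normalized counts of 731 in MYC WT, 1145 in MYC MUT and 817 in SWP, and rose in MYC MUT by 0.66 (limma adjusted p = 0.0058). The sources used here do not say whether strand was used in counting, so reads in the shared bases cannot be told apart.

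MXI1 is an MXD repressor that binds MAX and SIN3 proteins, and its gene lies at chr10:110207605-110287365 on the plus strand. Normalized counts were 4980, 5851 and 5237 in MYC WT, 3281, 3593 and 3571 in MYC MUT and 4412, 5600 and 5217 in SWP. The MYC MUT libraries lay below all 6 others, and those of SWP and MYC WT overlapped. MXI1 fell by 0.62 ± 0.10 (log2) in MYC MUT (limma adjusted p = 0.000471) and was called in each of 21 alternatives. It was 0.54 ± 0.10 higher in SWP than in MYC MUT (limma adjusted p = 0.00113), and SWP differed from MYC WT by -0.08 (95% confidence interval -0.29 to 0.13). Without MYC MUT library 1 or without SWP library 2 the difference between the edited lines dropped to 0.496 and 0.464, under the fold threshold, with adjusted p values by limma of 0.0075 and 0.0058. The 36 tested genes within 5 Mb had a median of -0.23 in MYC MUT against MYC WT, with 6 called lower and 5 higher, and of 0.15 in SWP against MYC MUT.

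MXD1 is the family member induced during terminal differentiation, and its gene lies at chr2:69897688-69942945 on the plus strand. It had 614, 670 and 618 normalized counts in MYC WT, 754, 720 and 762 in MYC MUT and 1022, 858 and 830 in SWP. The 3 lines did not overlap and stood in the order MYC WT, MYC MUT, SWP. MXD1 rose by 0.51 ± 0.10 in SWP against MYC WT, to 142% (limma adjusted p = 0.00676), a value just past the fold threshold. The call was lost with a pseudocount of 10 (0.499), without MYC WT library 1 (0.48) or 3 (0.49) and without SWP library 1 (0.41), with limma adjusted p values of 0.0074 to 0.0316 in these fits. MXD1 was 0.27 ± 0.10 higher in SWP than in MYC MUT (limma adjusted p = 0.0444) and exceeded MYC WT by 0.23 ± 0.10 in MYC MUT (limma adjusted p = 0.0761). The 113 tested genes within 5 Mb had a median of -0.08 in SWP against MYC WT, and 2 of them were called higher and 0 lower. SNRNP27 shares 237 exon bases with MXD1 on the same strand and had a mean of 2189 in MYC WT, 2623 in MYC MUT and 2281 in SWP.

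MXD3, a family member expressed in proliferating cells, at chr5:177301461-177312757 on the minus strand, had 1046, 1353 and 1454 normalized counts in MYC WT, 1408, 1633 and 1511 in MYC MUT and 1181, 1617 and 1526 in SWP. Its lines overlapped in every comparison, and library 1 was the lowest in each line. No comparison passed the test, and the largest difference was 0.25 (95% confidence interval -0.06 to 0.56) in MYC MUT against MYC WT. MXD3 shares 1148 exon bases with PRELID1 on the opposite strand, which had a mean of 16694 in MYC WT, and 926 with RAB24 on its own strand, which had 1170, so that its values are uncertain in the shared bases.

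MXD4, at chr4:2247432-2262109 on the minus strand, encodes another MAX-binding repressor that recruits SIN3 proteins, and was the most abundant of the 5 repressors in each line. It had 8916, 8744 and 9082 normalized counts in MYC WT, 9127, 9656 and 10452 in MYC MUT and 9466, 8925 and 10006 in SWP. All MYC MUT libraries lay above those of MYC WT by a narrow margin, and the difference of 0.13 (95% confidence interval -0.03 to 0.28) did not pass the test (limma adjusted p = 0.172). SWP differed from MYC WT by 0.09 (-0.07 to 0.24) and from MYC MUT by -0.04 (-0.19 to 0.11).

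MNT, a widely expressed MAX partner that represses MYC targets in resting and cycling cells, is encoded at chr17:2384073-2401104 on the minus strand. Its normalized counts were 2474, 2729 and 2726 in MYC WT, 3429, 3542 and 3825 in MYC MUT and 2644, 2514 and 2799 in SWP. The MYC MUT libraries lay above all others, and MYC WT and SWP overlapped. MNT exceeded its MYC WT level by 0.45 ± 0.07 in MYC MUT (136%, limma adjusted p = 0.000807) and 0.44 ± 0.07 lower in SWP than in MYC MUT (limma adjusted p = 0.000853), both short of the fold threshold. SWP stood at 100% of MYC WT, with a log2 fold change of 0.01 (95% confidence interval -0.16 to 0.17). With values rescaled to equal totals the first difference became 0.52 and was called. Among the 152 tested genes within 5 Mb of MNT, 41 were called higher and 2 lower in MYC MUT against MYC WT, with a median of 0.24, and 60 were called lower and 2 higher in SWP against MYC MUT, with a median of -0.41.

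MLX, at chr17:42567072-42573239 on the plus strand, had 6845, 6122 and 6760 normalized counts in MYC WT, 5553, 5176 and 5104 in MYC MUT and 5181, 4743 and 4880 in SWP. Both edited lines lay below MYC WT with no overlap, and they overlapped with each other. The difference from MYC WT was -0.32 ± 0.07 in MYC MUT (limma adjusted p = 0.00428) and -0.41 ± 0.07 in SWP (limma adjusted p = 0.0034), at 80.3% and 75.0% of the MYC WT mean, and neither reached the fold threshold. Both comparisons use the same MYC WT libraries, whose headers carry the suffix that those of the edited lines lack. SWP against MYC MUT gave -0.10 (95% confidence interval -0.25 to 0.06). The 213 tested genes within 5 Mb of MLX had medians of -0.10 and -0.23 in the same 2 comparisons with MYC WT. MLX overlaps PSMC3IP on the opposite strand by 775 exon bases (mean 2961 in MYC WT, 2894 in MYC MUT and 2587 in SWP), and its processed pseudogene MLXP1 had 74.7, 61.8 and 54.5.

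MGA, at chr15:41621134-41773081 on the plus strand, carries both a T-box and a helix-loop-helix domain. Its normalized counts were 6189, 5526 and 4822 in MYC WT, 4475, 3969 and 5200 in MYC MUT and 6118, 5079 and 5785 in SWP. MYC MUT held the lowest values, but its library 3 overlapped with both other lines. The difference from MYC WT was -0.28 ± 0.12 (limma adjusted p = 0.0813) and that between SWP and MYC MUT 0.32 ± 0.12 (limma adjusted p = 0.0501), and neither was called.

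**Figure D3:**
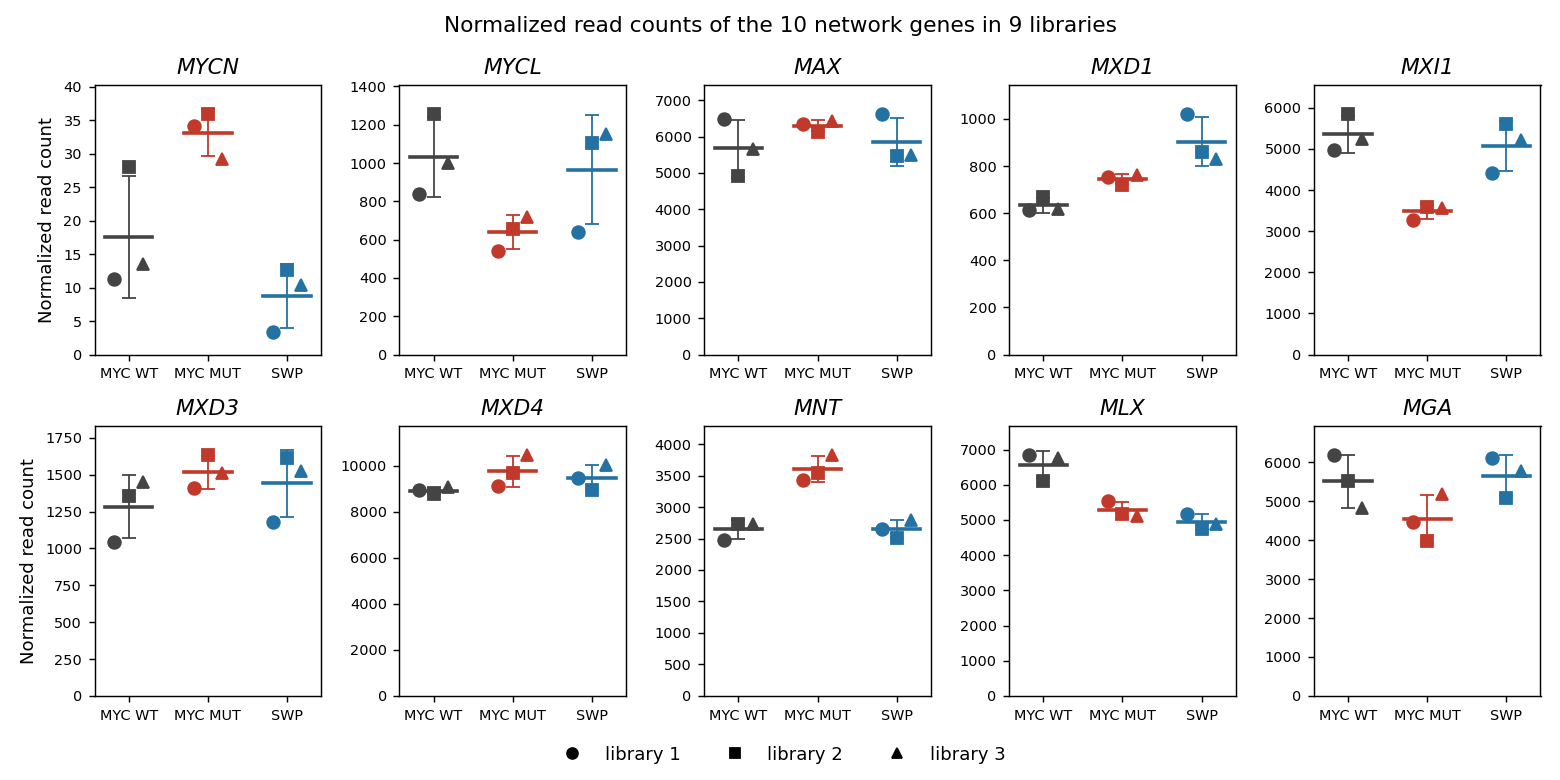
Normalized read count of each of the 10 members (linear axes from 0, a scale for each gene) in the 3 libraries of each line, with bars at the mean and error bars of 1 SD. The MYC MUT libraries stand apart from the other 6 for MXI1 and MNT, and for MYCN by a narrow margin (29.2 against 28.1). The MYC WT libraries stand above the other 6 for MLX and below them for MXD1, where those of SWP stand highest.

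Exact two-sided permutation tests of 3 libraries against 3 cannot give a p below 0.1, and gave that value for each member whose libraries did not overlap, in each comparison.

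Other genes that overlap a member, or are named after one, were near 0. MYCNOS, MYCNUT, the pseudogenes MYCLP1 and MYCLP2 and the microRNA genes MIR4706, MIR4800 and MIR626 had group means of at most 1.3 normalized counts. MYCL-AS1, antisense to MYCL with 226 shared exon bases, had means of 1.3 in MYC WT, 7.6 in MYC MUT and 4.5 in SWP, and CHURC1-FNTB, which crosses MAX, had 8.9, 3.9 and 4.9. The unnamed noncoding genes and pseudogenes that cross MAX, MNT, MXI1 and MGA reached at most 1.6.

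Set side by side in each library, the level of MYC genes and that of their antagonists moved differently across the lines. The sum of MYC, MYCN and MYCL per kilobase was 3450, 4912 and 3739 in the MYC WT libraries, 1872, 1975 and 2185 in MYC MUT and 2500, 4277 and 4369 in SWP. The sum of MXD1, MXI1, MXD3, MXD4 and MNT was 2742, 2967 and 2925 in MYC WT, 2693, 2878 and 3004 in MYC MUT and 2838, 3011 and 3113 in SWP, and overlapped between all lines. The ratio of the first sum to the second was 1.40 ± 0.22 (SD, n = 3) in MYC WT, 0.703 ± 0.022 in MYC MUT and 1.23 ± 0.31 in SWP. Every MYC MUT library had a ratio under 1, as did library 1 of SWP at 0.881, and the other 5 libraries were at 1.26 or above. MYC made up 94.7% of the first sum in MYC WT and in SWP and 93.0% in MYC MUT, and MYCL 5.15%, 5.22% and 6.39%. MXD4 made up 45.1% of the second sum in MYC WT, 49.6% in MYC MUT and 46.1% in SWP. The sum of MYC genes was 4.58 ± 1.51 times the level of MAX in MYC WT, 2.00 ± 0.14 times in MYC MUT and 4.08 ± 1.49 times in SWP. The first sum and the ratio thus largely repeat the level of MYC, the edited gene, and are no separate result on the members. Within the second sum the mean of MXI1 was lower in MYC MUT than in MYC WT (589 against 907). Those of MNT (414 against 304) and MXD4 (1418 against 1297) were higher. These sums add RNA and not protein, and were given no test.

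The members also varied within lines, along with the libraries that stood apart. Library 1 deviated from the mean of libraries 2 and 3 of its line to the same side in MYC WT and in SWP for 9 of 10 members, and for 76.9% of all genes tested. In SWP the log2 deviation of library 1 was -1.49 for MYCN, -0.82 for MYCL, -0.41 for MXD3, -0.29 for MXI1, 0.27 for MAX and 0.28 for MXD1, beside -0.79 for MYC. In MYC WT it was -0.74 for MYCN, -0.41 for MYCL, -0.42 for MXD3, -0.15 for MXI1 and 0.30 for MAX, beside -0.31 for MYC. MXD1, at -0.07 in MYC WT, was the member that went to the other side. The median size of that deviation over all genes was 0.21 in SWP, 0.19 in MYC WT and 0.095 in MYC MUT, and over the members 0.27, 0.21 and 0.11. What set these libraries apart was not tested.

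HEK293T clones can differ in chromosome copy number, so the genes around each member were described as well. In MYC MUT against MYC WT the member and the median of its neighbours within 5 Mb lay on the same side of 0 for MYCL, MXI1 and MLX (lower) and for MYCN, MNT, MXD1, MXD3 and MXD4 (higher). MGA was lower while its 129 neighbours had a median of 0.12. For MAX the neighbours had a median of 0.00 to 2 decimals. In SWP against MYC WT the sides matched only for MYCN, MYCL, MXI1 and MLX (lower). There MAX, MNT, MXD1, MXD3, MXD4 and MGA were above 0 and their neighbours' medians below it. In SWP against MYC MUT the sides matched for all members but MXD1 and MGA. Of all members and comparisons MYCN was furthest from its surroundings, at -1.95 against -0.23 for 33 neighbours in SWP against MYC MUT. MXD1 was at 0.51 against -0.08 when SWP was set against MYC WT. Copy number was not measured in these data, and its part in the members' values was not tested.

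Genes whose products work with the members were counted by the same rule, beside 11.3% of all genes called higher and 10.1% called lower in MYC MUT against MYC WT, 2.15% and 2.98% in SWP against MYC WT, and 8.31% and 12.3% in SWP against MYC MUT. Of the Mondo partners of MLX and their sugar-responsive targets (MLXIP, MLXIPL, TXNIP and ARRDC4), 0 of 4 were called in any comparison by limma or edgeR (at an unadjusted p under 0.05 in limma, 1 lower in MYC MUT against MYC WT and 1 higher in each other comparison), with a median of -0.20 in MYC MUT against MYC WT, where all genes had -0.0034. TXNIP, which restrains glucose uptake, had a log2 fold change of -0.51 ± 0.22 there (limma adjusted p = 0.0906), and was the gene that DESeq2 called, lower in MYC MUT than in MYC WT and higher in SWP than in MYC MUT. Of 15 genes of the SIN3 corepressor that MXD proteins recruit, SAP18 alone was called, falling by 0.69 ± 0.08 in MYC MUT (limma adjusted p = 5.2e-05), from a mean of 8198 normalized counts to 5064, and the list median was -0.04. At an unadjusted p under 0.05 in limma 6 were higher and 5 lower in MYC MUT. Among them, short of the fold threshold, were RBBP7 (-0.42, limma adjusted p = 0.00061), SIN3A (-0.39, limma adjusted p = 0.00087) and SAP30 (0.35, limma adjusted p = 0.038). SWP had 0 of 15 called against MYC WT by limma, edgeR or DESeq2 (1 higher and 1 lower at an unadjusted p under 0.05 in limma), and SAP18 was higher in SWP than in MYC MUT by 0.63 ± 0.08. Of 14 other genes of the MGA complexes, 0 were called against MYC WT in either line by limma, edgeR or DESeq2 (medians 0.03 and -0.02), and at an unadjusted p under 0.05 in limma 3 were higher and 3 lower in MYC MUT and 0 in SWP. In MYC MUT these included PCGF6 (-0.46, limma adjusted p = 0.00079) and RING1 (0.40, limma adjusted p = 0.00062), short of the fold threshold. RING1, a Polycomb ubiquitin ligase gene, differed from MYC WT by -0.11 in SWP (limma adjusted p = 0.341). It was called lower in SWP than in MYC MUT by limma, at -0.51 ± 0.06, and by neither edgeR nor DESeq2.

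Among 20 cofactors of MYC, 2 were called lower in MYC MUT against MYC WT and 0 higher by limma, edgeR and DESeq2 (2 higher at an unadjusted p under 0.05 in limma), a count near the 10.1% of all genes called lower, with a list median of 0.02. ZBTB17, which encodes MIZ1, the partner through which MYC represses genes, fell by 0.87 ± 0.11 (limma adjusted p = 9.5e-05), from a mean of 2034 normalized counts to 1108, and RUVBL2, a helicase of chromatin remodelling complexes, fell by 0.59 ± 0.07 (limma adjusted p = 6.2e-05). EP400, a chromatin remodeller gene, was called lower in SWP than in MYC WT at -0.57 ± 0.11 (limma adjusted p = 0.00827), and 0 were called higher by any of these tools (2 at an unadjusted p under 0.05 in limma). ZBTB17 was 0.82 ± 0.11 higher and the acetyltransferase gene KAT2A lower (-0.71 ± 0.20) in SWP than in MYC MUT. In that comparison edgeR and DESeq2 called KAT5 higher as well, which limma put at 0.48 (limma adjusted p = 0.00028). Among 18 genes of MYC turnover 0 were called against MYC WT in either line by limma, edgeR or DESeq2 (medians -0.04 and 0.01), with 5 higher and 3 lower in MYC MUT and 3 higher and 2 lower in SWP at an unadjusted p under 0.05 in limma. In MYC MUT these included AURKA (0.43, limma adjusted p = 0.0022) and USP28 (-0.39, limma adjusted p = 0.00097), short of the fold threshold. Between the edited lines the deubiquitinase gene USP28 was called higher (0.61 ± 0.07) and the kinase gene AURKA lower (-0.58 ± 0.09) in SWP. There edgeR and DESeq2 called STUB1 higher as well, which limma put at 0.47 (limma adjusted p = 0.00051). Of 9 other genes of the same domain class, such as USF1 and SREBF1, 8 were tested and 0 were called in any comparison by limma, edgeR or DESeq2. At an unadjusted p under 0.05 in limma, 1 was higher and 2 lower in MYC MUT against MYC WT, 1 and 1 in SWP against MYC WT, and 3 and 2 in SWP against MYC MUT. In MYC MUT these were TFE3 (0.34), MITF (-0.32) and TFAP4 (-0.38), short of the fold threshold, with limma adjusted p values of 0.0031, 0.015 and 0.0015.

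MGA complexes are known to silence germline genes in somatic and stem cells. Of 16 listed, 6 had enough reads to be tested, and these were not all silent, since TEX15 had a mean of 3685 and TDRKH of 2684 normalized counts in MYC WT. In MYC MUT against MYC WT 2 were called higher (SYCE2 and TDRKH) and 3 lower (HORMAD1, STK31 and TEX15). SYCE2, a gene of the synaptonemal complex, rose by 1.42 ± 0.22, from a mean of 51.5 to 139 normalized counts, and the meiotic gene HORMAD1 had means of 40.2 in MYC WT, 3.83 in MYC MUT and 2.25 in SWP. HORMAD1 passed the minimum mean of 10 only through MYC WT, so that it could be tested only as a gene high in that line, and its place among the genes called lower is no support for a fall of the list. SWP had 1 called higher, SYCE2 at 0.82 ± 0.22, and 2 lower against MYC WT, HORMAD1 and STK31, of which DESeq2 did not call STK31. Against MYC MUT it had 0 called higher by limma, edgeR or DESeq2 (1 at an unadjusted p under 0.05 in limma) and 2 lower, STAG3 (-0.80 ± 0.25) and SYCE2 (-0.60 ± 0.22).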

How the data were processed

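RNA-seq of 3 HEK293T lines (3 libraries each) was used, and the other assays of the series were not analysed here. Per the paper's methods and the submitters' processing notes, the authors prepared strand-specific poly(A) libraries, trimmed reads with cutadapt 1.18 and aligned them to hg38 with BWA 0.7.17-r2188, which does not join reads across introns, so that reads over exon junctions can be lost. Per the paper's supplement, mapped reads were also deduplicated with Picard MarkDuplicates. The counting tool and its use of strand are not given in the sources used here. As deposited, each value is a signal, namely a gene count that the authors divided by the DESeq2 size factor of its library. Each value times that factor was a whole number within 0.01 reads for 100% of values, so that read counts were recovered and used for edgeR 4.0.16 and DESeq2 1.42.0 as alternatives.

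Lines were compared with limma 3.58.1 (R 4.3.3) and an eBayes trend on log2(normalized count + 1), which understates changes of low genes. One fit held all 9 libraries and the 20884 genes with a mean of at least 10, with Benjamini-Hochberg adjustment, two-sided. Symbols and positions came from GENCODE release 44 on hg38, which matched 57754 of 58336 identifiers. The text names all 10 members and MYC, in each list the called gene with the largest rise and fall, and genes that overlap a member. RUVBL2, TXNIP, USF1, SREBF1, RBBP7, SIN3A, SAP30, PCGF6, TFE3, MITF, TFAP4, KRT8, COL1A1, TEX15, TDRKH, STK31 and the list genes named for SWP against MYC MUT were chosen after their values were seen. The members, the lists and this rule were chosen with earlier results of these data known. Same-numbered libraries of SWP deviated together with those of MYC WT (r over genes 0.56, 0.40 and 0.10) and of MYC MUT (0.33, 0.24 and 0.23). Those of MYC WT and MYC MUT had r of 0.33, 0.15 and 0.049. Pairs with different numbers had r from -0.48 to 0.26, and some exceeded same-numbered pairs. MYC WT 2 with SWP 3 (0.26) and MYC WT 3 with SWP 2 (0.17) lay above MYC WT 3 with SWP 3 (0.10). MYC WT 3 with MYC MUT 2 (0.15) lay above MYC WT 3 with MYC MUT 3 (0.049). The main fit held no term for the library number, so its p-values and calls do not use any pairing. Only the replicate block, an alternative, did. Fits were tested on simulated data. Python 3.11.15, pandas 2.3.3, numpy 2.4.6 and matplotlib 3.10.9 served for tables and plots.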

Additional observations from a re-analysis of the deposited data

Results flagged for a closer look

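For MYCN and MXI1 the difference between the edited lines was itself called by limma. MYCN stood at 0.98 in MYC MUT and at -0.97 in SWP against MYC WT on the log2 scale, neither called, and the direct difference of SWP from MYC MUT was -1.95 (limma adjusted p = 0.00486), with all 3 SWP libraries below all 3 of MYC MUT and between 3 and 37 reads per library. MXI1 stood at -0.62 and -0.08 against MYC WT, and the direct difference of SWP from MYC MUT was 0.54 (limma adjusted p = 0.00113), with all 3 SWP libraries above all 3 of MYC MUT. Both lines are edited clones, so clone and edit cannot be told apart in these differences.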

How the results depend on the processing

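The alternatives, beside the leave-outs of each library, were other pseudocounts (0.1 and 10), a minimum mean of 50, every gene with a read, equal totals, equal upper quartiles, no eBayes trend, fits of 2 groups, the replicate block, edgeR, DESeq2 and other call rules. The number of members called in MYC MUT against MYC WT was 2, and became 1 without a trend, 3 with a pseudocount of 10 and with only the 2 groups compared, 4 with the adjusted p alone and 0 with a log2 fold change beyond 1, and 1 to 3 when 1 library was left out. For SWP against MYC WT it was 1, and became 0 with a pseudocount of 10, 2 with the adjusted p alone, 0 beyond 1, 0 to 1 with 1 library left out and 0 without library 1 of MYC WT and of SWP together. For SWP against MYC MUT it was 2, and became 1 with a minimum mean of 50, which removes MYCN, 3 with edgeR, with DESeq2 and without both libraries 1, 4 with the adjusted p alone, 1 beyond 1 and 1 to 3 with 1 library left out. All genes called numbered 4476, 1072 and 4309 in the same order, 8021, 2083 and 7944 with the adjusted p alone, and 1648, 505 and 1723 beyond 1. With 1 library left out they ranged from 3943 to 4942, 841 to 1254 and 3811 to 4784. Genes called higher made up 52.8% of those called in MYC MUT against MYC WT and 64.2% with equal totals.

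Directions turned only in leave-outs, and only for uncalled values near 0, given here with the range over the leave-outs of 1 library. For SWP against MYC WT these were MYCL (-0.28 to 0.15, 0.027 without MYC WT 2 and 0.15 without SWP 1), MAX (-0.051 to 0.15, below 0 without MYC WT 2 and, at -0.042, without SWP 1), MNT (-0.042 to 0.043, below 0 without MYC WT 1 and, at -0.034, without SWP 3), MXI1 (-0.16 to 0.016, above 0 without SWP 1), MGA (-0.051 to 0.13, below 0 without MYC WT 3 and, at -0.017, without SWP 1) and MYC (-0.29 to 0.12, 0.0034 without MYC WT 2 and 0.12 without SWP 1). Without both libraries 1, MYCL was at 0.0094, MNT at -0.040 and MYC at 0.014. For SWP against MYC MUT these were MXD3 (-0.17 to 0.052, above 0 without SWP 1, also 0.052 without both libraries 1) and MXD4 (-0.087 to 0.0103, above 0 without MYC MUT 3 and, at 0.00029, without SWP 2). The cause was not tested.

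The lines share replicate numbers, and the replicate block alone used them. For MYC MUT against MYC WT (r of deviations 0.33, 0.15 and 0.049) the block moved the members called from 2 to 3, with MYCN added. All genes called there went from 4476 to 4970. For the comparisons with SWP the block moved all genes called from 1072 to 1464 and from 4309 to 4773. In the latter it added a call of MYCL, and it changed no other call of a member in either. Depth limits MYCN alone of the members, at 3 to 37 reads per library, and 3 libraries per line limit every estimate of spread. Clone, edit and whatever the header suffix of MYC WT marks cannot be told apart in comparisons with MYC WT. In SWP against MYC MUT, clone and edit cannot be told apart either.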
